A study of Rattus norvegicus with 3 samples.

Results

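T cells recognise antigen through a receptor that signals by way of the CD3 chains, while natural killer (NK) cells read target cells through activating and inhibitory receptors of the Klr and Ly49 families. Both store granzymes in cytotoxic granules and release chemokines such as Ccl3, Ccl4 and Ccl5. In joints and bone marrow they share the space below the cartilage with developing B cells, granulocytes, macrophages and osteoclasts, and several of their cytokines act on bone-resorbing cells.

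T and NK cell genes of the rat temporomandibular joint condyle were followed in 3 single-cell RNA libraries. In each library the cluster with the highest mean count of Cd3e, which encodes a CD3 chain, was taken, so 3 of 52 clusters were chosen by that value alone. They were cluster 11 of 15 in sham, cluster 17 of 18 in UAC and cluster 19 of 19 in UAC + miR-330. The markers given for these cells were Cd3e, Nkg7, Lck and Il7r, of which 3 of 4 were listed in the tables used here, and Il7r was not.

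The study asked how the microRNA miR-330 affects the joint in unilateral anterior crossbite (UAC), a dental model that loads the condyle unevenly. The 24 rats were of the SD strain, wild type, and stood in 3 groups with 1 library each. Each library held cartilage and subchondral bone of 16 condyles, pooled from 8 rats, after 8 weeks. The labels give the cell types as chondrocytes and osteoclast, and no age or sex of the animals was used here. Rats of the sham group had an adeno-associated virus (AAV) vector injected into the joint and no crossbite. Rats of the UAC group had the same vector AAV and the crossbite, and rats of the UAC + miR-330 group had a miR-330 AAV and the crossbite. The cells that took up the virus are not given, and every group carried an AAV.

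Unique molecular identifiers (UMIs), each a captured RNA molecule, numbered 77668015 in sham, 92629658 in UAC and 97255383 in UAC + miR-330. The chosen cluster held 3786682 UMIs in the sham library, 4.88% of it (95% exact binomial interval 4.87 to 4.88). In UAC it held 2190625 UMIs, or 2.36% (2.36 to 2.37), and in UAC + miR-330 it held 2320124, or 2.39% (2.38 to 2.39). By UMIs it ranked 8th of its library's clusters in sham and 17th in both others. Levels below are in CPM, the UMIs of a gene in every 1000000 UMIs of the cluster, with exact Poisson 95% intervals that cover counting error only. An observed 0 allows 3 UMIs, a level of 0.792 CPM in the sham cluster, 1.37 in the UAC cluster and 1.29 in the UAC + miR-330 cluster. With 1 library per group no difference has a replicate check. Clusters were made in each library alone, the tables give no number of cells, doublets and free RNA cannot be read from sums, and cell barcodes shared between libraries could not be counted.

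Cd3e stood at 22.2 CPM in sham cluster 11 (95% interval 17.7 to 27.5), at 565 in UAC cluster 17 (534 to 598) and at 416 in UAC + miR-330 cluster 19 (391 to 443). The next highest was cluster 1 of sham at 14.9 (12.0 to 18.2), cluster 14 of UAC at 9.90 and cluster 11 of UAC + miR-330 at 5.22. In sham the chosen and the next cluster thus had intervals that overlap, and in both crossbite libraries they lay far apart. Of each library's Cd3e UMIs the chosen cluster held 33.1% in sham, 91.2% in UAC and 87.6% in UAC + miR-330. Sham clusters 11, 1 and 13 together held 245 of the 254 Cd3e UMIs of that library, 96.5% of them, with 84, 93 and 68 UMIs. These values chose the clusters and are a description.

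**Figure D1:**
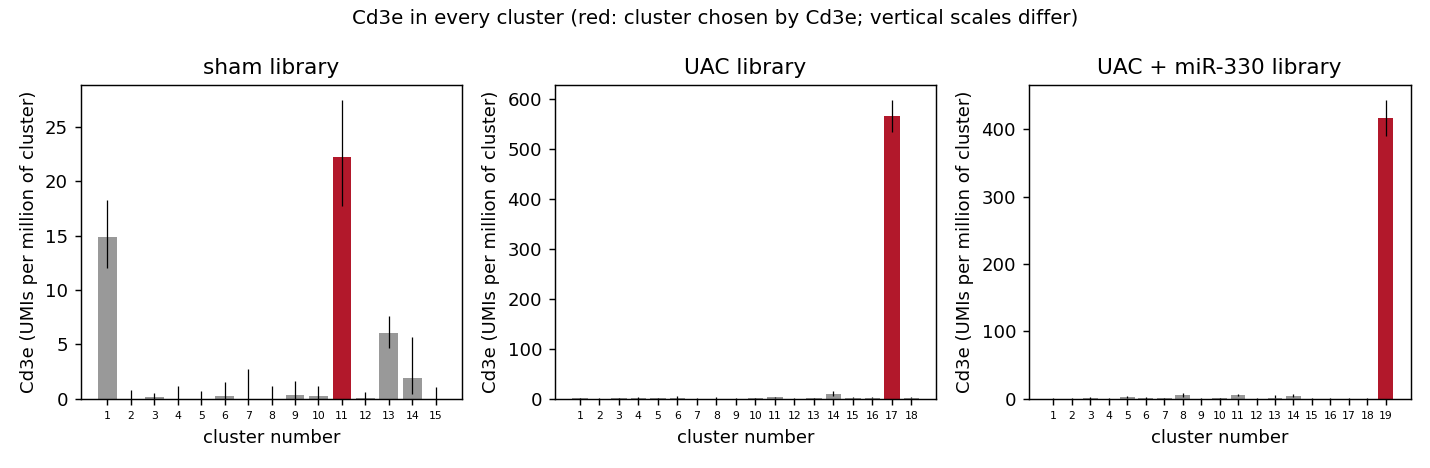
Level of Cd3e in CPM of the cluster (vertical axis, scales differ between panels) in every cluster of each library (horizontal axis, cluster number). Bars are levels, lines are exact Poisson 95% intervals, and the chosen cluster is red. It stands at 22.2 in sham, beside 14.9 in cluster 1, and at 565 in UAC and 416 in UAC + miR-330.

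Nkg7, a protein of cytotoxic granule membranes, read 41.7, 468 and 438 CPM in the clusters of sham, UAC and UAC + miR-330. Lck, the kinase that starts signalling at the T cell receptor, read 85.6, 308 and 255. Lck was highest in the chosen cluster in each of the 3 libraries but was not particular to it. The chosen cluster held 32.7% of the Lck UMIs in UAC and 28.4% in UAC + miR-330. In sham, cluster 13 held 35.9% of them, more than cluster 11, and read 51.4 CPM. The next highest Lck levels in the crossbite libraries were 55.2 in UAC cluster 15 and 59.4 in UAC + miR-330 cluster 14. Nkg7 was higher in sham cluster 14, UAC cluster 18 and UAC + miR-330 cluster 18 than in the chosen clusters, which held 5.70%, 20.1% and 20.6% of its UMIs. UAC cluster 17 and UAC + miR-330 cluster 19 are called T and NK cell-like below. The sham cluster went against that name, since its leading genes were others, Dntt and Erg among them, and it is called sham cluster 11.

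Developing B cells rearrange their immunoglobulin genes with Rag1 and Dntt and display a surrogate light chain made of Igll1 and Vpreb proteins. Dntt, the polymerase that adds untemplated bases at those joints, read 1522, 5.02 and 2.16 CPM in the 3 clusters in the same order, and sham cluster 11 held 77.4% of its UMIs in the library. Igll1 read 1750, 3.20 and 1.29, and Vpreb2 read 1673, 4.11 and 0.431. The surrogate light chain was thus at high levels in sham cluster 11 and near 0 in the chosen clusters of both crossbite libraries. Igll1 also read 1166 in sham cluster 13, 1232 in UAC cluster 15 and 1065 in UAC + miR-330 cluster 14. Sham cluster 11 held 27.9% of the Igll1 UMIs of its library and sham cluster 13 held 55.6%. Of the 11 genes of the early B cell list 10 were listed, with a sum of 8116 CPM in sham cluster 11, 941 in UAC cluster 17 and 1010 in UAC + miR-330 cluster 19. In the latter pair Lef1, a transcription factor of T cells too, made up 900 and 991 of it.

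Of the 15 genes of the B cell list, all 15 were listed, and their sum was 14723, 696 and 609 CPM. Its most abundant gene was Ebf1, a factor that commits cells to the B lineage, at 11083, 415 and 375. Cd79b, a chain of the B cell receptor, read 516, 35.6 and 25.4. Ms4a1, which mature B cells carry, read 3.96 in sham cluster 11 and 383 in sham cluster 1. The entry Cd79al, matched to the list by a synonym, was at 0 in each of the 3 clusters and had 4, 6 and 10 UMIs in the whole libraries, so it cannot serve as a marker here. The part of these B-lineage genes in the differences between sham and UAC clusters was not tested, and they were on lists apart from those of T and NK cells.

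Leading genes were the 15 per library with the largest ratio of the cluster's level to the rest of the library, among genes that had 100 or more UMIs there. Those of sham cluster 11 included Ccdc141, Jhy, Dntt, Scml4, Gata3, Erg and Egfl7. Of these 15 genes, 11 were highest in UAC cluster 15 and 11 were highest in UAC + miR-330 cluster 14, where Cd3e stood at 1.82 and 4.44 CPM. In both crossbite libraries, then, most of the genes that led the sham cluster led a cluster other than the one with the most Cd3e. In the other direction, 10 of the 14 listed leading genes of the UAC cluster and 11 of the 15 of the UAC + miR-330 cluster were highest in sham cluster 11. The UMIs of sham cluster 11 thus included those of early B genes beside those of T and NK genes. Gata3, a factor of T helper and innate lymphoid cells, read 35.9, 270 and 290.

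The leading genes of UAC cluster 17 were Gzma, Il17a, Gzmk, Ccl5, Ly49s6, Ly49s5, Klrd1, Klra22, Themis, Klri2, AABR07027872.1, Klre1, Cd28, Icos and Cd3e. Those of UAC + miR-330 cluster 19 were Klra22, Gzma, Ccl5, Klre1, Gzmk, Klrd1, Gata3, Klrb1c, Cd27, Sh2d1a, Baiap3, Styk1, Ly49s6, Il2ra and Cdh3. The lists shared 7 genes, and 14 of the 14 UAC leading genes listed in the UAC + miR-330 table were highest in its cluster 19. Of the 15 leading genes of that cluster, 15 were highest in UAC cluster 17. Il17a, the cytokine that draws neutrophils and acts on bone-resorbing cells, had 145 UMIs in UAC cluster 17, 66.2 CPM and 98.0% of its UMIs in that library. It was not listed in the sham and UAC + miR-330 tables used here, so its level there is not known.

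The first comparison, UAC against sham, asks what the crossbite changed under the same vector. A gene was called past 2-fold when its ratio, with 0.5 UMI added to each count, reached 2 and the intervals lay apart, among genes whose counts in the pair added up to 20 or more. Between the clusters 1148 of 9778 genes were higher in UAC (11.7%) and 1533 were lower (15.7%), 27.4% in all. With deposited mean counts in place of CPM, 1371 were higher and 1229 lower. Between the whole libraries, which no clustering touches, 381 of 15638 genes were higher (2.44%) and 299 were lower (1.91%), 4.35% in all. The median log2 ratio was −0.17 over the 10891 genes with 10 or more UMIs in the pair of clusters and −0.02 in the whole libraries. In whole libraries fewer cells of a type and less RNA per cell cannot be told apart. Cd3e chose the clusters, so the cluster ratios of genes that T cells carry are a description of 2 clusters with different make-up. A CD3 scale divides by the summed UMIs of Cd3e, Cd3d and Cd3g of the cluster. It is given beside the median of each T and NK list in this comparison. On it 50 genes were higher and 9244 lower. A gene near 0 in sham enters the test only if it is high in UAC, so for several lists the count among genes with 20 or more sham UMIs is also given. In sham cluster 11 the CD3 sum rests on Cd3g, with 298 UMIs beside 84 of Cd3e and 59 of Cd3d. Cd3g was not particular to the chosen clusters, which held 11.7%, 35.5% and 29.3% of its UMIs in sham, UAC and UAC + miR-330. It read 78.7 CPM in sham cluster 11, 74.7 in sham cluster 13 and 52.0 in sham cluster 3. The CD3 scale is thus not a measure of T cells alone in sham. Divided by Cd3e alone, a scale chosen after seeing the data, the regulatory T cell median was 0.09 and every other T and NK list median was below 0.

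T cell receptor genes stood higher in the UAC cluster. Of the 21 genes of the T cell receptor complex and core T cell list 18 were listed and tested, 16 were higher and 2 were lower, with a median log2 ratio of 3.96, or 0.47 on the CD3 scale. Without Cd3e, which chose the clusters, 15 of 17 were higher and the median was 3.95. With 20 or more sham UMIs required, 14 of 16, Cd3e among them, were higher. The summed level was 809 CPM in sham cluster 11, 5015 in UAC cluster 17 and 5332 in UAC + miR-330 cluster 19. Skap1, an adaptor that links the receptor to integrins, was its most abundant gene in both crossbite libraries, at 70.2, 1267 and 1524. Themis, which tunes receptor signals during thymic selection, read 7.66, 154 and 324. Cd28, the main costimulatory receptor, read 3.96, 153 and 173. The lower pair was Thy1, a surface glycoprotein, at 285, 11.4 and 9.05, and Ubash3a, a damper of receptor signals, at 70.2, 33.3 and 34.5. Both were highest outside the crossbite libraries' chosen clusters, Thy1 in cluster 2 of each. In the whole libraries 10 of the 18 genes were higher and 0 lower, with a median of 1.24. The constant genes of the T cell receptor, Trac, Trbc1 and Trbc2, were not listed in the tables used here.

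Of the coreceptors, Cd4 had 3, 15 and 27 UMIs, too few in sham and UAC to be tested. Cd8a, a chain of the coreceptor of cytotoxic T cells, read 18.0, 346 and 242 CPM, and Cd8b read 4.23, 87.6 and 105. In both, UAC and UAC + miR-330 stood far above sham, and the cluster held 89.3% of the Cd8a UMIs of the UAC library. Of the list of 10 coreceptors and lineage factors 8 were tested in the clusters, 6 were higher and 0 lower. The median log2 ratio was 2.92, or −0.58 on the CD3 scale. With 20 or more sham UMIs required, 4 of 6 were higher. In the whole libraries 4 of 10 were higher. Satb1, a chromatin organiser of thymocytes, had overlapping intervals in sham and UAC, at 992, 1057 and 990.

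Regulatory T cell genes were higher in most of those tested. Foxp3, the factor that defines these cells, had 0 UMIs in sham cluster 11, 65 in UAC cluster 17 and 51 in UAC + miR-330 cluster 19, which is 29.7 and 22.0 CPM. Against the floor of 3 UMIs the UAC level was at least 37.5-fold higher. Sham cluster 1 held 12 Foxp3 UMIs, 1.92 CPM, so the sham library had the gene in a cluster other than the chosen one. Of 8 genes tested 7 were higher, with a median log2 ratio of 4.76, or 1.27 on the CD3 scale, and Lrrc32 was lower at 24.0, 7.30 and 6.47. Of the 5 with 20 or more sham UMIs 4 were higher. Ikzf2, a factor of regulatory and innate-like T cells, read 21.1, 639 and 489, and Il2ra, a chain of the interleukin-2 receptor, read 31.4, 488 and 543. In the whole libraries 7 of the 9 tested were higher and 0 lower, with a median of 1.75.

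NK receptor genes were higher in most of those tested. Of 25 genes 23 were listed and 19 were tested, 18 were higher and 0 lower, and the median log2 ratio was 4.26, or 0.76 on the CD3 scale. Of the 12 with 20 or more sham UMIs 11 were higher. The sum was 194, 3107 and 3276 CPM in the clusters of sham, UAC and UAC + miR-330. Klrd1, the partner chain of NKG2 receptors, read 13.7, 383 and 259, and the transcription factor Tbx21 read 14.5, 308 and 329. Klrb1a, a lectin-like receptor, read 18.0, 375 and 419. Across the whole libraries 12 of 23 were higher and 0 lower, with a median of 1.10. The sham library's highest sum of this list, 458 CPM, was in cluster 14 and was mostly Nkg7. Without Nkg7 it was 49.1 there, 153 in sham cluster 11 and highest, at 258, in sham cluster 15. Receptors of the Ly49 family, outside the lists, were among the largest rises. Ly49s6 read 1.85, 189 and 202, Ly49i4 read 2.11, 193 and 75.4, and Klra22 read 1.06, 127 and 58.6.

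Granule genes were higher in most members. Gzma, a granzyme, had 0 UMIs in sham cluster 11, 113 in UAC cluster 17 and 168 in UAC + miR-330 cluster 19, at least 65.1-fold higher in UAC than the sham floor. The whole sham library had 8 Gzma UMIs, 4 of them in cluster 1. Gzmk read 4.49, 266 and 303 CPM, and Gzmm read 35.4, 609 and 512. In sham Gzmk was highest in cluster 1, at 12.5, with 59.5% of its UMIs in that library. Ctsw, a protease of killer cells, read 23.0, 521 and 375. These genes were high in both crossbite clusters and low in sham cluster 11. Srgn, the proteoglycan that packs granules in many blood cells, read 467, 487 and 701. Of 13 tested 9 were higher and 0 lower with a median log2 ratio of 3.59, or 0.09 on the CD3 scale. With 20 or more sham UMIs required, 6 of 10 were higher, and in the whole libraries 5 of 13 were. The summed level of 832, 2641 and 2860 was exceeded in other clusters of each library, where it reached 5759, 6442 and 13091.

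Of the list of cytokines and chemokines, Ccl5 and Ccl4 were the most abundant in both crossbite clusters. Ccl5 read 45.4, 1539 and 1918 CPM, and the cluster held 12.4% of its UMIs in sham and 96.6% in UAC. In sham it was highest in cluster 1, at 178. Ccl4 read 23.8, 1512 and 1415, with 152 in sham cluster 1, and Ccl3 read 45.7, 688 and 368. All 3 draw T cells and macrophages. Of the 23 genes of the list 8 were tested, 8 were higher and the median log2 ratio was 4.28, or 0.78 on the CD3 scale and 3.01 with 5 UMIs added to each count. Of the 5 with 20 or more sham UMIs 5 were higher. In the whole libraries 8 of 12 were higher and 0 lower. Tgfb1, a cytokine of most blood cells, read 147, 344 and 408. Il10, Csf2, Ltb and Tnfsf11, the last of them the ligand that drives osteoclast formation, had 0 UMIs in UAC cluster 17. Il10 and Tnfsf11 had 0 in sham cluster 11 too. Csf2 and Ltb were not listed in sham, and Ltb and Tnfsf11 were not listed in UAC + miR-330.

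Receptors for cytokines were higher by less. Of the 19 listed 13 were higher in UAC and 0 lower, with a median log2 ratio of 1.83, or −1.66 on the CD3 scale. With 20 or more sham UMIs required, 9 of 15 were higher, and in the whole libraries 4 of 19 were. Ifngr1, a chain of the interferon gamma receptor, read 127, 841 and 768 CPM, and Il18rap read 2.90, 89.9 and 107. Of the 28 listed genes of T cell receptor signalling 21 were higher and 0 lower, with a median of 2.49, or −1.01 on the CD3 scale, and 7 were higher in the whole libraries. Without Cd3e 20 of 27 were higher between the clusters. Ptprc, the phosphatase CD45, read 569, 1930 and 2681, and Cblb, a ligase that restrains activation, read 242, 1350 and 1948. Both crossbite clusters exceeded sham cluster 11 in each of these genes.

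Of the gamma-delta T and innate lymphoid list 5 of 7 tested were higher and 0 lower. The median log2 ratio was 3.15, or −0.34 on the CD3 scale. With 20 or more sham UMIs required, 4 of 6 were higher, and in the whole libraries 6 of 11 were. Rora, a factor of innate lymphoid and interleukin-17 producing cells, read 50.4, 707 and 1017 CPM, and Il1rl1, the receptor for interleukin-33, read 31.7, 283 and 413. Of the naive and homing list 11 of 15 tested were higher and 1 was lower, with a median of 3.56, or 0.07 on the CD3 scale, and of the 8 with 20 or more sham UMIs 4 were higher. Cd27, a costimulatory receptor, read 13.7, 378 and 384, and the lower gene S1pr4 read 115, 44.7 and 46.5. Homing genes in the whole libraries were higher in 5 of 17.

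Of the activation and immediate early list 12 of 19 tested were higher and 2 were lower, with a median log2 ratio of 2.11, or −1.38 on the CD3 scale, and 0 of 20 were past 2-fold in the whole libraries. Junb, a transcription factor made within minutes of stimulation, read 273, 2073 and 1517 CPM. The lower pair was Dusp2, at 779, 326 and 294, and Irf4, at 55.5, 20.5 and 15.5. Of the inhibitory receptors 4 of 7 tested were higher and 0 lower, with a median of 2.73, or −0.76 on the CD3 scale. With 20 or more sham UMIs required, 3 of 6 were higher, and in the whole libraries 5 of 10 were. Lag3, which binds MHC class II, read 5.81, 99.1 and 53.4, and Tox, a factor of long-stimulated T cells, read 32.5, 216 and 330. Interferon-stimulated genes were higher in 9 of 18 tested and lower in 2, with a median of 1.19, or −2.30 on the CD3 scale. With 20 or more sham UMIs required, 6 of 12 were higher and 2 lower, and 0 were past 2-fold in the whole libraries. Mx1, an antiviral protein, read 10.8, 60.7 and 53.4. Cell cycle genes were higher in 1 of 16 and lower in 2, with a median of −0.14, or −3.63 on the CD3 scale.

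Among genes at least 4 times the rest of the library, the falls from sham to UAC included leading genes of sham cluster 11 and others. Jhy, a leading gene, read 167, 0.456 and 0 CPM, and Pgr, the progesterone receptor, read 51.2, 0 and 0. In UAC cluster 15 they stood at 161 and 51.2. Rdh12, a retinol dehydrogenase, had 140, 0 and 0 UMIs, at least 27.0-fold lower in UAC than in sham. The B cell list was lower in 11 of 13 tested, and the early B cell list in 8 of 9, with median log2 ratios of −3.78 and −7.09. In the whole libraries 0 of 14 and 0 of 10 were lower, and the medians were −0.09 and −0.40.

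**Figure D2:**
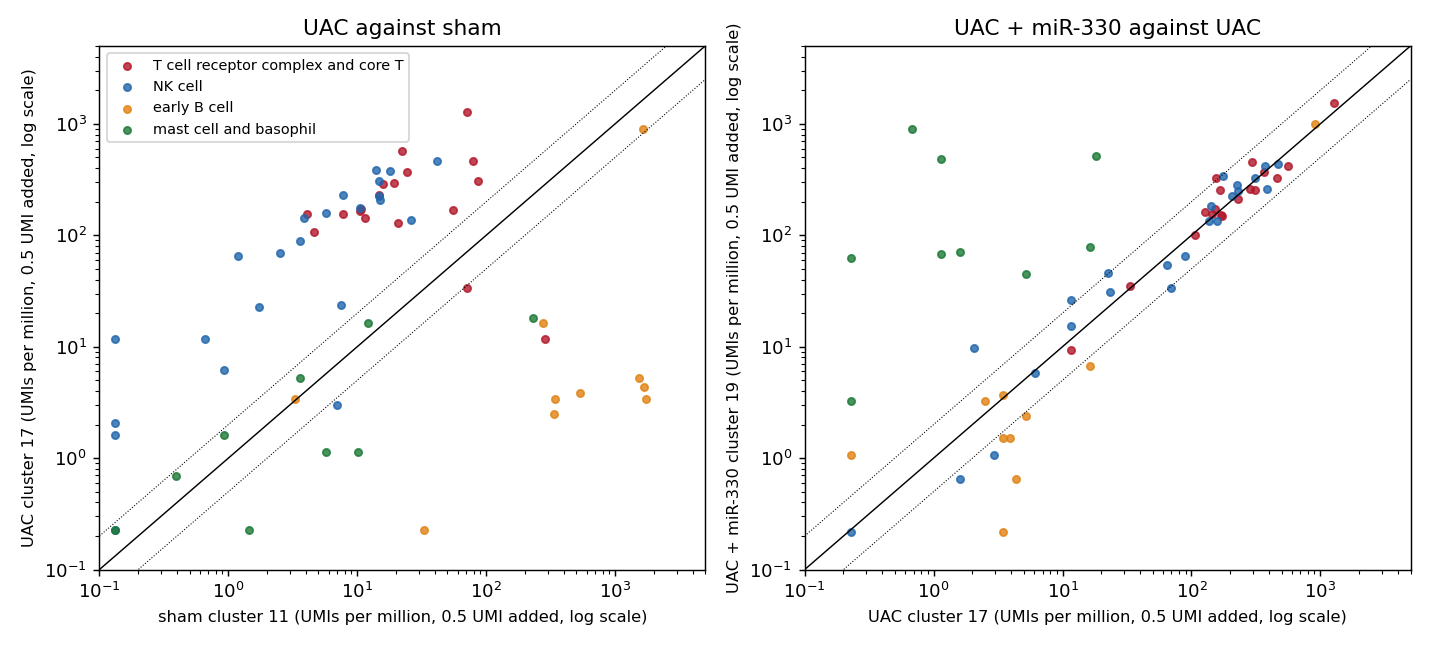
Each point is a gene of the T cell receptor complex and core T, NK cell, early B cell or mast cell and basophil list. Axes are CPM of the cluster with 0.5 UMI added, on log scales, for UAC against sham (left) and UAC + miR-330 against UAC (right); solid lines mark equality and dotted lines 2-fold. Most T and NK genes lie above the lines on the left and near equality on the right, where the mast cell and basophil genes lie above.

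The second comparison, UAC + miR-330 against UAC, asks what the miR-330 AAV changed under the crossbite. Between the T and NK cell-like clusters 414 of 9189 genes were higher (4.51%) and 88 were lower (0.958%), 5.46% in all. Between the whole libraries 384 of 15912 were higher (2.41%) and 150 were lower (0.943%), 3.36% in all. Over genes with 10 or more UMIs the median log2 ratio was 0.19 between the clusters and 0.13 between the libraries. Centring on the median of genes that had 50 or more UMIs in each cluster took 0.15 from every ratio and left 285 genes higher and 145 lower. Of the 222 genes of the T and NK lists found in both tables, 16 were higher and 3 lower. These were 11 and 7 once centred, 25 and 2 with deposited mean counts, and 34 and 2 on the CD3 scale.

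Few core T cell genes passed 2-fold between the 2 clusters. Of the 18 tested 1 was higher and 0 lower, with a median log2 ratio of −0.04, or 0.35 on the CD3 scale. With Cd3e left out, since it chose the clusters, 1 of 17 was higher and the median was 0.01. Cd3d read 287 CPM in UAC and 260 in UAC + miR-330, and Cd3g read 461 and 327, the latter with intervals apart. Themis was the 1 that rose, 2.11-fold, from 154 to 324, and after centring its log2 ratio was 0.93. Of the coreceptors 0 of 9 and of the receptor signalling genes 0 of 28 passed 2-fold, or 0 of 27 without Cd3e. Their medians were 0.14, or −0.01 once centred, and 0.25. The same held for 0 of 19 cytokine receptors (median 0.15), 0 of 13 granule genes (0.30) and 0 of 17 interferon-stimulated genes (−0.06, or 0.33 on the CD3 scale). Lck, at 308 and 255, had intervals apart and lay below 2-fold.

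NK receptors moved in both directions. Of 20 tested 3 were higher and 1 lower, with a median log2 ratio of 0.13, or −0.02 once centred. With 20 or more UMIs required in the UAC cluster, 2 of 18 were higher and 1 lower. Klrc1, an inhibitory NKG2 receptor, read 0.528, 11.4 and 25.9 CPM in the clusters of sham, UAC and UAC + miR-330. Ncr1, an activating receptor of NK cells, read 1.58, 22.4 and 45.7, and after centring its log2 ratio was 0.88. The third was Sh2d1b, an adaptor of NK cells, with 0, 4 and 22 UMIs. Klri2 fell from 68.9 to 33.6, a log2 ratio of −1.03, or −0.64 on the CD3 scale. The Ly49 receptors Ly49i4 and Klra22 were lower too, 193 against 75.4 and 127 against 58.6, while Ly49s6 was level at 189 and 202. On the CD3 scale the log2 ratio of Ly49i4 was −0.96 and that of Klra22 −0.73, both short of 2-fold.

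Tnfrsf4 (OX40), a costimulatory receptor of the TNF receptor family, read 0.528, 41.5 and 11.6 CPM, a 3.57-fold fall from UAC to UAC + miR-330. Tnfrsf9 (4-1BB) read 6.34, 159 and 87.5, and Tnfrsf18 (GITR) read 6.87, 142 and 89.7, both with intervals apart and under 2-fold, while Cd27 of the same family was level at 378 and 384. Of the regulatory T cell list 0 of 8 were higher and 1 lower, with a median log2 ratio of −0.55, or −0.16 on the CD3 scale, and Foxp3 at 29.7 and 22.0 had overlapping intervals. Other large falls included Zdbf2, from 47.9 to 5.17 or 9.27-fold, and Chrne, an acetylcholine receptor chain, from 282 to 107. Rinl fell from 57.5 to 23.3, Olah from 111 to 53.0, Cd80 from 34.7 to 17.2 and Mmd from 88.6 to 44.8, the last short of 2-fold. On the CD3 scale, which adds 0.39 to each log2 ratio here, Rinl, Olah and Cd80 were short of 2-fold too. In the UAC library Cd80 was highest in cluster 9, at 84.5. Cd200, a ligand that calms myeloid cells, fell from 23.3 to 6.47.

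Of the cell cycle list 6 of 16 tested were higher and 0 lower, with a median log2 ratio of 0.64, or 1.03 on the CD3 scale. Of the 10 with 20 or more UMIs in the UAC cluster 3 were higher. Across whole libraries 0 of 19 were past 2-fold, and the median log2 ratio was −0.02. The ratio there was 1.97 for Mki67, 1.75 for Cenpf and 1.42 for Top2a. Mki67, a protein of dividing cells, read 12.4, 15.1 and 92.2 CPM in the 3 clusters, and Top2a, which untangles replicated DNA, read 5.81, 16.0 and 60.8. Cenpf, a kinetochore protein, rose from 5.93 to 54.3. These levels stayed far below those of other clusters, where Mki67 reached 1000 in UAC cluster 5 and 2216 in UAC + miR-330 cluster 16.

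Mast cell genes rose most. Of the 11 genes of the mast cell and basophil list 9 were listed, 8 were tested and 8 were higher, with a median log2 ratio of 5.68, or 4.56 with 5 UMIs added to each count. Only 2 of the 8 had 20 or more UMIs in the UAC cluster, so most were tested because of their UMIs in the UAC + miR-330 cluster. The sum was 265, 42.5 and 2213 CPM in the clusters of sham, UAC and UAC + miR-330. Cpa3, a protease of mast cell granules and the most abundant of them, had 1 UMI in the sham cluster, 1 in the UAC cluster and 2076 in the UAC + miR-330 cluster, which is 895 CPM and 65.9% of its library. Cma1, a chymase, read 10.0, 0.913 and 479. Fcer1a, a chain of the receptor for IgE, and Tpsab1, a tryptase, were at 0 in the UAC cluster, and none of the 9 was at 0 in the UAC + miR-330 cluster.

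In the UAC library these genes stood in another cluster. UAC cluster 13 had 620 CPM of Cpa3, 681 of Cma1 and 9946 of Mcpt10, against 0.456, 0.913 and 17.8 in UAC cluster 17. In the UAC + miR-330 library cluster 18 had 228 of Cpa3, 164 of Cma1 and 7895 of Mcpt10, against 895, 479 and 512 in cluster 19. In the whole libraries Cpa3 read 23.7 in UAC and 32.4 in UAC + miR-330, and of 9 list genes 0 were higher and 1 lower. Of the 10 largest rises Tpsb2, Mcpt1l1 and Mcpt2 are mast cell proteases too, and Tpsb2 went from 0 to 238 UMIs, at least 74.9-fold higher. Others were highest in different UAC clusters. Adam12, Car8 and Scin led in cluster 16, where the chondrocyte list was highest, and Ddc in cluster 12, where the neutrophil list was. Car8 was nearly as high in UAC cluster 13, at 112 against 117 in cluster 16. Of the 414 genes that were higher, 31 (7.49%) were highest in UAC cluster 13, against 106 (1.15%) of the 9189 tested, and so were 4 of the 88 that were lower. Their part in the rises of other genes was not tested.

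Some of the rises on T and NK lists were genes that mast or myeloid cells also carry. Kit, the receptor for stem cell factor, read 11.9, 16.0 and 78.9 CPM and stands on the innate lymphoid and the mast cell list alike. Csf1, the growth factor of macrophages and osteoclasts, read 2.11, 1.83 and 24.6, and in the UAC library it was highest in cluster 13, at 89.8. Havcr2 (TIM-3) read 0.792, 2.74 and 48.3, and in the UAC library it was highest in cluster 9, at 91.2. Cx3cr1, the receptor for fractalkine, read 0, 2.28 and 15.9, and Tnfaip3, a brake on NF-kB, read 19.0, 97.7 and 197, with a log2 ratio of 0.87 after centring. In the sums of a cluster, UMIs of these genes from T or NK cells and from other cells cannot be told apart.

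Markers of the other cells of the tissue were measured beside these. The neutrophil list, 15 of 15 listed, summed to 3437, 4167 and 1531 CPM in the clusters of sham, UAC and UAC + miR-330, led by S100a9 at 1700, 2056 and 700. It fell in 6 of 8 tested from UAC to UAC + miR-330, while in the whole libraries 0 of 15 passed 2-fold. Ltf was at 0 in sham, Prtn3 in UAC and both in UAC + miR-330. The monocyte and macrophage list, 13 of 13, summed to 139, 256 and 149, led by Lyz2, and Csf1r, C1qa, C1qc, Ms4a7 and Cd163 were at 0 in UAC cluster 17. The dendritic cell list, 10 of 10, summed to 89.3, 194 and 191, led by Bst2, and Xcr1 and Clec9a were at 0 in each of the 3. The plasma cell list, 6 of 7, summed to 97.2, 61.6 and 94.4, led by Jchain in sham and Prdm1 in the others, with Tnfrsf17 at 0 throughout. The part of these lists in the results was not tested.

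The chondrocyte list, 11 of 11, summed to 142, 66.2 and 66.4 CPM in the chosen clusters against 6469, 2817 and 3446 in the rest of each library, and Prg4 was at 0 in each of the 3. Its most abundant gene was Col2a1 in sham, Comp in UAC and Col11a1 in UAC + miR-330. The fibroblast and osteoblast list, 12 of 12, summed to 414, 269 and 356, led by Col1a1 in sham and by Runx2, a factor that T cells carry too, in the others, and Sp7 was at 0 throughout. The erythroid list, 10 of 13, summed to 104, 41.5 and 73.3, led by Hba-a1, with Alas2 at 0 in both crossbite clusters. The megakaryocyte list, 7 of 7, summed to 21.1, 105 and 94.0, led by Itgb3, with Gp1bb at 0 throughout. The endothelial list, 6 of 7, summed to 11.9, 6.85 and 13.4, led by Vwf, with Cdh5 at 0 throughout. The labelled chondrocytes thus left few UMIs in these clusters, and the part of these lists was not tested.

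Ribosomal protein genes made up 18.9% of the UMIs of sham cluster 11, 22.3% of UAC cluster 17 and 17.4% of UAC + miR-330 cluster 19, while the rest of the library had 11.7% in UAC and 9.95% in UAC + miR-330. Mitochondrial genes made up 5.30%, 4.81% and 5.16%. Immunoglobulin genes made up 0.181%, 0.0486% and 0.0250%, below the 0.498%, 0.877% and 0.633% of the rest.

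**Figure D3:**
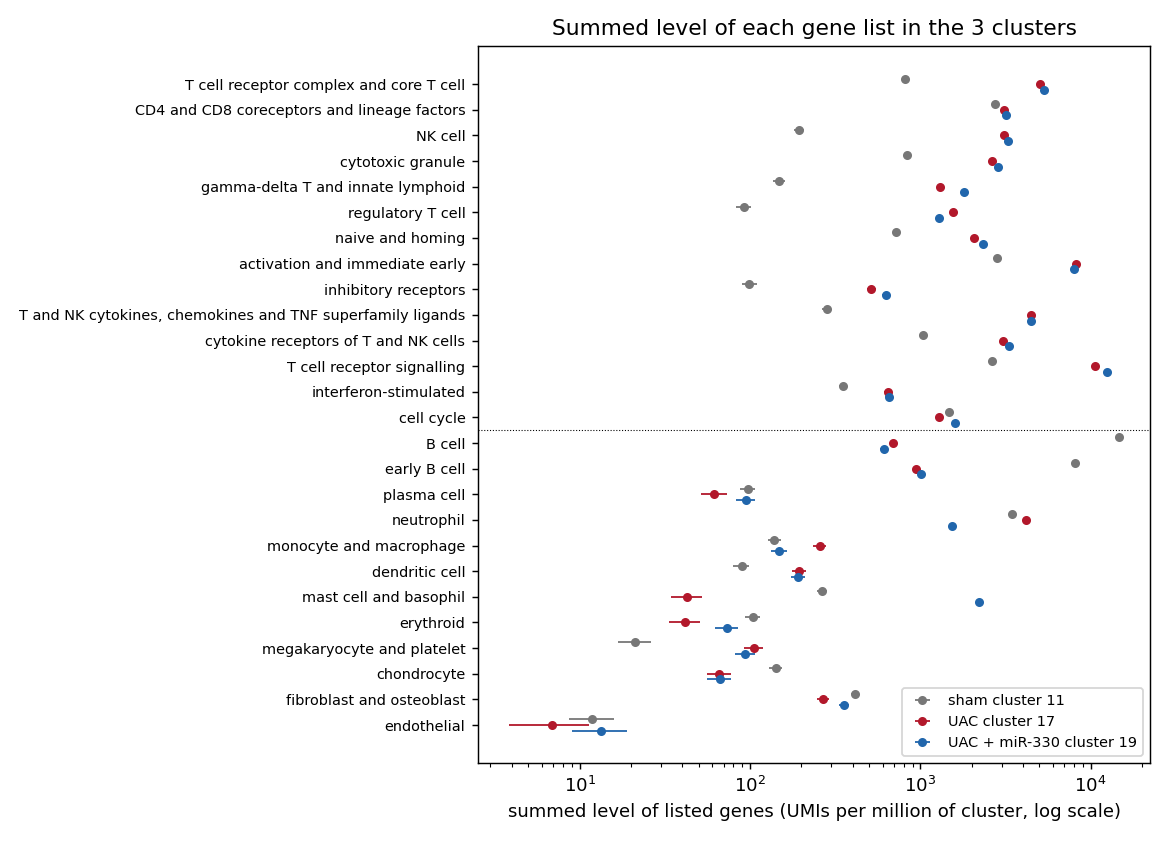
Summed level of the listed genes of each of the 26 gene lists (vertical axis) in CPM of the cluster (horizontal axis, log scale) in sham cluster 11, UAC cluster 17 and UAC + miR-330 cluster 19. Points are sums, lines are exact Poisson 95% intervals, and the dotted line parts the T and NK lists above from those of other cell types below. The B cell sum is 14723 in sham and 696 and 609 in the others, and the mast cell and basophil sum is 265, 42.5 and 2213.

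The study names Ctgf, Fgfr1, Epor, Il1b and Tnf as genes under miR-330, and Tnf was not analysed here. Fgfr1, a growth factor receptor, read 36.7, 17.8 and 31.5 CPM in the 3 clusters. Il1b, an inflammatory cytokine, read 10.6, 9.13 and 9.48 with overlapping intervals. Ctgf, a matrix protein of skeletal cells, had 39, 3 and 8 UMIs, and Epor, the erythropoietin receptor, had 3, 2 and 3. These genes stood at low levels in the T and NK cell-like clusters, and 0 of the 2 tested between UAC + miR-330 and UAC passed 2-fold. Between the UAC and sham clusters 3 were tested, 0 were higher and 2 were lower.

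The miR-330 hairpin gives a mature strand from each arm, and both are shown because the name miR-330 covers both. The tables hold no small RNA, so neither was measured. The sequences are those of RefSeq on rat build GRCr8, plus strand of chromosome 1, read 5′ to 3′, and capitals mark the seed, bases 2 to 8, which pairs with targets. The 5p strand lies at chr1:87961227-87961248 and the 3p strand at chr1:87961266-87961288.
rno-miR-330-5p: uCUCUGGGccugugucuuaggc
rno-miR-330-3p: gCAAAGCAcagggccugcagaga

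Promoters are shown for leading genes that both T and NK cell-like clusters shared. Of the 7 shared genes 5 had a promoter in the RefSeq table. The core letters of sites for RUNX factors, which act in T and NK cells, are TGTGGT on 1 strand and ACCACA on the other. They were found in the 250 bases before the start of 2 of the 5, Gzma and Gzmk, and in 3870 of 27457 genes, 14.1%. The Gzma promoter lies at chr2:46485697-46485946 and that of Gzmk at chr2:46582016-46582265, both on the minus strand of GRCr8, with the letters in capitals.
Gzma: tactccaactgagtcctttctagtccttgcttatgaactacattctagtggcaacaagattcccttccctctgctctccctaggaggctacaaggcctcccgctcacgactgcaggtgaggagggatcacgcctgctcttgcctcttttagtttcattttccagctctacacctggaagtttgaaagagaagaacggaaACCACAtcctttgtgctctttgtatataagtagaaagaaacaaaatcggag
Gzmk: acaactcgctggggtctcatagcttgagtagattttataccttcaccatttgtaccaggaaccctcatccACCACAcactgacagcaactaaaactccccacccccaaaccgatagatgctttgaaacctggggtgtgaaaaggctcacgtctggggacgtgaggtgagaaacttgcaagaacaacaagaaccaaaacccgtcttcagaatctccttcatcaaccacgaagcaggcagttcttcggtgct

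The neighbouring receptor genes Klra22, at chr4:165743026-165743275, and Ly49s6, at chr4:165790071-165790320, are shown because both were leading genes of the T and NK cell-like clusters. Both are on the minus strand. Their longest shared run in these 250 bases, in capitals, has 21 bases and was found in 4 of 27457 genes (0.0146%), which were Klra22, LOC124459649, Ly49s6 and Ly49si1. A match is a description of letters in this window.
Klra22: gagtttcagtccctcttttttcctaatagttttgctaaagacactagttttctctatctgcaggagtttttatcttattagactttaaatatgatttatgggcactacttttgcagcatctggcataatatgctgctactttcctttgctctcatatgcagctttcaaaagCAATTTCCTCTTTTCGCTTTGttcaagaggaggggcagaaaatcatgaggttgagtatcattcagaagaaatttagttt
Ly49s6: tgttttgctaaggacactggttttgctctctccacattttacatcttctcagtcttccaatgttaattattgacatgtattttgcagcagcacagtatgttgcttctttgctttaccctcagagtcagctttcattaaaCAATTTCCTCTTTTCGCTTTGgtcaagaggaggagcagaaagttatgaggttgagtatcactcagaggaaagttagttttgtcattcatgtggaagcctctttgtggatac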

How the data were processed

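The deposited values were mean counts, a signal per gene and cluster that the authors made with Cell Ranger 7.0 and STAR, with Seurat 4.0.1 for their own clusters. The labels name builds GRCh38 and mm10, the identifiers are rat, and the rat build is not given. Each deposited mean was divided by the smallest positive mean of its column, and 100% of the values came out whole within 0.001. A count model was not run because each condition has 1 library. The deposited log2 fold changes and adjusted p-values compare each cluster with the other clusters of its library and were not used. Values of names with several identifiers were summed. Of the 373 genes on 26 lists 348 were listed, 2 of them by a RefSeq synonym.

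Members and lists were chosen with earlier results of these data known. Named genes were the given markers, up to 4 genes per list with the most UMIs, up to 3 largest changes each way per list, the 15 leading genes per library, the 10 largest rises and falls per comparison among genes at least 4 times the rest of the library with at least 100 UMIs, and the targets the study names. List medians used members with at least 10 UMIs. Genes named beyond these, among them Cd4, Cd79b, Ms4a1, Rag1 and Tnfsf11, were chosen after their values were seen. Some list members are not reported here. Calculations used Python 3.11.15 with numpy 2.4.6, scipy 1.17.1, pandas 2.3.3 and matplotlib 3.10.9.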

Additional observations from a re-analysis of the deposited data

Results flagged for a closer look

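Cd3e was also found in clusters that the choice left out, above the 3 UMIs that an observed 0 allows. Sham cluster 1 had 93 UMIs of Cd3e, more than the 84 of the chosen cluster 11. Sham cluster 13 had 68 UMIs. UAC cluster 11 had 40 and UAC cluster 14 had 23, and UAC + miR-330 cluster 11 had 80. The source of these UMIs was not tested.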

How the results depend on the processing

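Leaving out genes of ribosomal proteins, mitochondria, haemoglobin and immunoglobulin, the chosen cluster held 4.56% of the sham, 2.10% of the UAC and 2.20% of the UAC + miR-330 UMIs. The core T cell list, which holds Cd3e itself, picked the same 3 clusters. In sham cluster 11 its sum of 809 CPM was led by Thy1 at 285, which was lower in the UAC cluster. The most Cd3e UMIs, the given markers and the NK cell list each picked the same cluster in 2 libraries, with sham cluster 1, 14 and 14 in place of 11.

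Genes past 2-fold between UAC and sham clusters numbered 2681. On the CD3 scale they were 9294 (50 higher), since every ratio loses 3.49 in log2. They were 1710 with at least 100 UMIs, where fewer genes were tested, and 610 of 690 among genes at least 4 times the rest (413 higher), which are picked for being high in a cluster, and 680 in whole libraries, an alternative chosen after seeing the data. With mean counts 1371 were higher and 1229 lower. With sham cluster 1 in place of 11, or sham clusters 1, 11 and 13 summed, both also chosen after seeing the data, they were 2925 and 3615. Between UAC + miR-330 and UAC they numbered 502, against 881 with mean counts (838 higher), 1389 on the CD3 scale (1364 higher), 207 with at least 100 UMIs and 96 among genes at least 4 times the rest. Without genes highest in UAC cluster 13, chosen after seeing the data, 467 were past 2-fold.

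Of the 14 T and NK lists, 13 had a median past 2-fold between UAC and sham, all of them higher. On the CD3 scale 6 were past 2-fold, of which the regulatory T cell list (1.27) was higher and the others lower. Between UAC + miR-330 and UAC 0 were past 2-fold, or 1 on the CD3 scale, the cell cycle list (1.03). Of medians that began past 2-fold, the CD3 scale changed the sign of the UAC against sham median of the coreceptor (−0.58), innate lymphoid (−0.34), activation (−1.38), inhibitory receptor (−0.76), cytokine receptor (−1.66), receptor signalling (−1.01), interferon-stimulated (−2.30) and dendritic cell (−2.32) lists. Divided by Cd3e alone, chosen after seeing the data, they were −1.75, −1.52, −2.56, −1.94, −2.84, −2.19, −3.48 and −3.49 in the same order. That scale also changed the sign for the core T cell (−0.71), NK cell (−0.41), granule (−1.08), naive and homing (−1.11) and cytokine (−0.39) lists, since every ratio loses the change of Cd3e, and 10 lists were past 2-fold, all lower. Between UAC + miR-330 and UAC 1 list was past 2-fold on it. Smaller medians changed sign too, on the CD3 scale those of the plasma cell (−2.96), neutrophil (−3.22) and monocyte and macrophage (−3.11) lists. With members of 50 or more UMIs the plasma cell median of 4 genes was −0.40 and the monocyte and macrophage median of 2 genes was −1.60, and 1 megakaryocyte gene was left, at 2.92. With 5 UMIs added the cytokine median was 3.01 in place of 4.28, and that of mast cell genes between UAC + miR-330 and UAC was 4.56 in place of 5.68. In UAC + miR-330 against UAC medians near 0 changed sign with the scaling, among them that of the inhibitory receptor list (0.08 with mean counts). Where not stated, the cause was not tested. With 1 pooled library per group, counting error is the only error measured, and genes under 20 UMIs were not called.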
